A study of Mus musculus with 142 samples.

Results

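The transcriptional regulators Eya1 to Eya4, Six2, Six4, Six5, Dach1 and Dach2 were followed in cultured mouse oligodendrocyte precursor cells (OPCs) through 5 days of differentiation. These 9 genes were taken by name from the 54127 genes of the series, and they were chosen by their gene-level counts and TPM across region, genotype and day in these same cultures, so their levels and differences are given as descriptions. The p-values set each difference against the spread of wells and of culture lines and are not independent evidence. OPCs came from the brainstem or the dorsal telencephalon of pups aged P5 to P7, from litters pooled by region and genotype, and were immunopanned on PDGFRa after depletion on BSL1, a lectin that binds endothelial cells and microglia. K27M cultures came from hGFAP-Cre pups (named AMGFAP-Cre in the labels) with an H3f3a knock-in of K27M behind a lox-stop-lox cassette on the FVB background. Cre was driven there by the human GFAP promoter, and not by a promoter of the oligodendrocyte lineage. Controls were littermates, which the study's methods describe as without Cre, so that the silenced K27M allele leaves the other H3f3a allele expressed. At day 0 the cells were in proliferation medium with forskolin, CNTF, NT-3 and PDGF, and at days 1, 2 and 5 in differentiation medium with forskolin, CNTF and thyroid hormone.

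The 2 regions, 2 genotypes and 4 days made 16 groups of 9 wells, apart from 8 wells in brainstem control at day 1 and in brainstem K27M at day 2, with 1 RNA-seq library per well. The wells of each region and genotype came from the cultures numbered 38, 41 and 42, so 12 lines stood behind all wells, and nothing in the labels says that wells of 1 line came from separate litters. Each comparison was therefore made on wells and again on the counts summed per line. A gene was called higher, lower, risen or fallen where edgeR's quasi-likelihood test, with Benjamini-Hochberg adjustment over all genes, gave an adjusted p under 0.05 both times with the same sign. Levels are CPM, the gene's count for each 1 M counts of the library, with library size scaled by edgeR's TMM normalization. Means are given ± SD over 3 cultures. Levels of different genes are compared only in TPM, which counts transcripts for each 1 M transcripts and is corrected for length.

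Eya proteins are protein phosphatases and transcriptional co-activators without a DNA-binding domain of their own, and they act through homeodomain proteins such as Six2. Dach proteins, relatives of Ski, bind the same complexes and mostly act as co-repressors. The network follows Pax genes in eye, ear, kidney and muscle development, and Six2 is known there to keep kidney progenitors from differentiating.

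The libraries held between 26.6 and 455 M read pairs (median 46.9 M), the second deepest 84.7 M. H3f3a, the targeted gene, stood at 140 to 549 CPM in control wells and 364 to 754 CPM in K27M wells, and gene counts do not show the changed codon. The labels give a batch number of unstated kind that the regions never share, so region and batch cannot be told apart. Brainstem control wells had a mean passage of 5.51 against 3.83 in brainstem K27M, 2.14 in telencephalon control and 2.11 in telencephalon K27M. The 6 day 5 wells of brainstem control cultures 41 and 42, called the outlying wells here, had 24905 to 33752 genes detected, and 4 of them lay above the other 136 libraries (20157 to 29299). Called differences that use them are given with and without them where that ends a call or moves the value by over 1.5 times. Leaving them out leaves 3 wells of culture 38 as the day 5 brainstem control, so a p on wells then rests on 1 line, and line sums assume that this line varies like the others. In brainstem, culture 38 has batch number 3 and cultures 41 and 42 have 4, so that batch also leaves this group. The deepest library, at 455 M read pairs, is among the 3 wells left, beside 56.4 and 54.9 M, and makes up most of that line's sum. At day 5 all 8 OPC markers and all 6 astrocyte markers were detected, and summed microglia markers were at 5.61 CPM or below. The day 5 sums of mature oligodendrocyte markers did not overlap between brainstem genotypes, at 37719 to 58089 CPM in control wells and 26784 to 35396 CPM in K27M wells, while astrocyte markers summed to 235 to 2302.5 CPM in brainstem control, 1276 to 2731 in brainstem K27M, 2495 to 14987 in telencephalon control and 618 to 5622 in telencephalon K27M. In such bulk samples, fewer cells of a type and less RNA per cell cannot be told apart.

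Most of the 9 genes were low to moderate in these cells. Eya3 had the highest TPM of the 9 in 15 of 16 groups, with group means of 2.73 to 6.67 TPM. Eya1 was the highest in the remaining group, telencephalon K27M at day 0, at 9.51 TPM, and also had the widest range of the Eya genes, reaching down to 0.175 TPM in brainstem control at day 5. Dach2 lay between 0.566 and 4.65 TPM and Eya2 between 0.307 and 2.80 TPM. Six4, Eya4, Dach1 and Six5 followed with group means of 0.113 to 0.979, 0.0395 to 0.773, 0.0218 to 0.208 and 0.0124 to 0.179 TPM. Neighbours in this order exchanged ranks between groups, while Eya3 stayed at rank 1 or 2, Eya4 at ranks 4 to 6, and Dach1 and Six2 at ranks 7 to 9. Six2 was at or below 0.0901 TPM in every group.

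**Figure D1:**
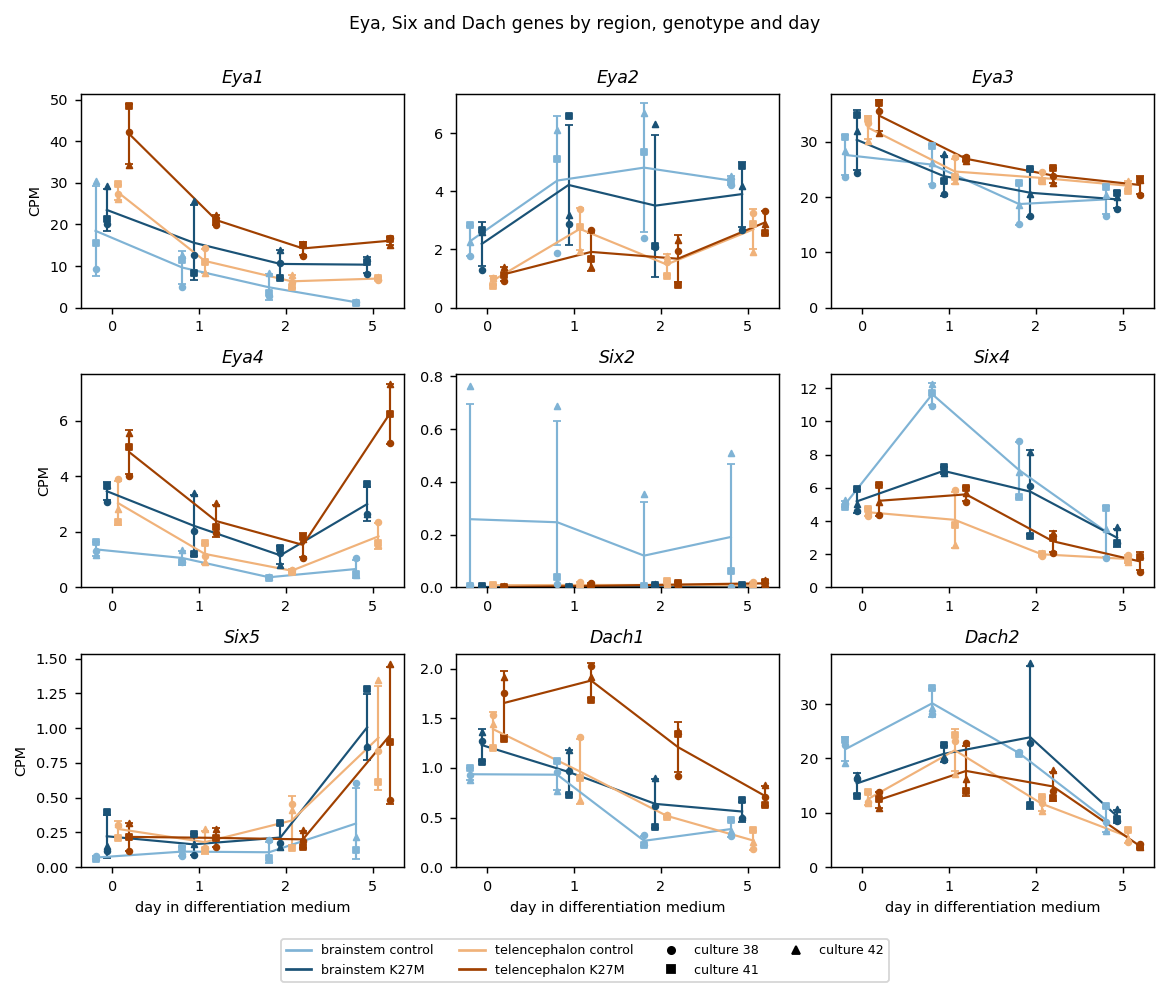
CPM of each of the 9 genes by day of differentiation in brainstem and telencephalon cultures of both genotypes; lines join means over 3 cultures, error bars are SD, and points are single cultures with the marker shape giving the culture number. Eya1 in brainstem control ended at 1.32 CPM while brainstem K27M ended at 10.3 CPM, and Six2 was high in a single line.

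Across the 5 days, most of the 9 genes moved the same way in all regions and genotypes. From day 0 to day 5, 2 genes rose (Eya2 and Six5) in every region and genotype. In brainstem control 5 fell (Eya1, Eya3, Eya4, Dach1 and Dach2), where 64.7% of all tested genes were called; this and the following percentages count all tested genes called in either direction. In brainstem K27M 5 fell (Eya1, Eya3, Six4, Dach1 and Dach2; 59.1% of all genes called), in telencephalon control 6 (Eya1, Eya3, Eya4, Six4, Dach1 and Dach2; 64.2%) and in telencephalon K27M 5 (Eya1, Eya3, Six4, Dach1 and Dach2; 64.9%). The share of the 9 genes called, 7 or 8 of 9, lay near that background and is not read as a result about them. Their median log2 change was -0.60, -0.62, -0.72 and -0.64 in the same order, beside -0.01, 0.04, 0.05 and 0.01 over all genes.

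K27M and control cultures differed in fewer of the 9. In brainstem, at day 0 Eya4 was higher and Six2 lower in K27M (1.35% of all genes called), at day 1 Six2 was lower (4.81%), at day 2 Eya1, Eya4 and Dach1 were higher (3.93%), and at day 5 Eya1, Eya4 and Six5 were higher and Six2 lower (11.2%). In telencephalon, 0 of 9 were called at day 0 (0.354% of all genes), where 2 passed an unadjusted p of 0.05 in edgeR on wells and DESeq2 called 2. At day 1 Dach1 was higher in telencephalon K27M (3.29%), and Eya1, Eya4 and Dach1 were higher at day 2 (4.77%) and at day 5 (2.12%). The calls of Six2 rested on 1 line, described further on. The K27M differences of the 2 regions were called different from each other for 1 gene, Eya1 at day 5 (3.69% of all genes). At days 0, 1 and 2, 0 of 9 were called (0.00506%, 8.57% and 0.88%), with 3, 5 and 4 genes at an unadjusted p under 0.05 in edgeR on wells and 1, 3 and 2 called by DESeq2. The change from day 0 to day 5 itself differed between genotypes for Eya1 in brainstem (0.536% of all genes called) and for 0 of 9 in telencephalon (0.106%), where 4 passed an unadjusted p of 0.05 on wells and DESeq2 called 3.

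Between the regions, controls differed in more of the 9 genes than K27M cultures by count, and the difference of these counts was not tested. In controls, Eya2 and Dach2 were higher and Eya4 and Six5 lower in brainstem at day 0 (11.9% of all genes called). Six4 was higher at day 1 (30.9%), a share of 1 in 9 that lies under its background. At day 2 Eya2, Six4 and Dach2 were higher and Eya3, Six5 and Dach1 lower (11.2%), and at day 5 Six4 was higher and Eya1, Eya4 and Six5 lower (15.3%). In K27M, 0 of 9 were called at day 0 (4.19%), with 6 at an unadjusted p under 0.05 on wells in edgeR and 5 called by DESeq2. Eya2 was higher and Dach1 lower at day 1 (5.73%), Dach1 lower at day 2 (3.47%), and Dach2 higher and Eya4 lower at day 5 (8.69%).

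Eya1 encodes a phosphatase co-activator of Six2 that is needed for ear and kidney development. It lies at chr1:14168954-14310235 on the minus strand of GRCm38 (ENSMUSG00000025932.14). In brainstem control wells its lowest, median and highest CPM were 9.24, 15.6 and 38.2 at day 0 and 1.08, 1.25 and 1.69 at day 5, so every day 5 well lay below every day 0 well. Brainstem K27M wells went from 17.9, 22.2 and 33.0 CPM to 7.92, 11.2 and 12, again without overlap. Eya1 thus fell by 3.63 ± 0.17 (SE) on the log2 scale in brainstem control (edgeR adjusted p = 2.9e-42 on wells and 8.87e-12 on line sums) and by 1.17 ± 0.15 in brainstem K27M (3.11e-12 and 0.000359). The telencephalon cultures fell by 1.98 ± 0.15 in control and 1.37 ± 0.15 in K27M. The drop was smaller with K27M in brainstem, where the 2 changes differed by 2.46 ± 0.22 (adjusted p = 2.62e-17 on wells and 0.00116 on line sums). In telencephalon they differed by 0.61 ± 0.21, past the threshold on wells (adjusted p = 0.0422) and not on line sums (0.779). Brainstem control culture 42 held 17.0 CPM of Eya1 at day 0 at passage 3, and 36.1 and 38.2 CPM at passage 8. Brainstem K27M culture 42 held 22.2 CPM at passage 1, and 32.2 and 33.0 CPM at passage 5. In brainstem K27M culture 41 the values were 22.3 CPM at passage 1, and 19.3 and 22.3 CPM at passage 2. At day 0 in telencephalon, control culture 41 held 30.3 and 30.4 CPM at passage 2, and 28.3 CPM at passage 3. Telencephalon control culture 42 held 28.9 CPM at passage 1, and 25.3 and 24.3 CPM at passage 2. Telencephalon K27M culture 42 held 31.5 and 33.6 CPM at passage 1, and 37.65 CPM at passage 3. Passage as a cause was not tested.

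By day 5 the genotypes were far apart in Eya1. All 9 brainstem K27M wells, at 7.92 to 12 CPM, lay above all 9 brainstem control wells, and the log2 difference was 2.92 ± 0.16 (adjusted p = 8.95e-33 on wells and 5.05e-08 on line sums), with 2.45, 3.22 and 3.07 in cultures 38, 41 and 42. In telencephalon at day 5 the control wells had 5.77, 6.94 and 7.81 CPM and the K27M wells 14.6, 15.7 and 17.5 CPM, which do not overlap either. That difference was 1.2 ± 0.15 (adjusted p = 1.24e-10 and 0.0108), and the brainstem difference exceeded it by 1.73 ± 0.22 (1.54e-10 and 0.0169). Without the outlying wells the brainstem difference was 2.42 ± 0.24 (edgeR adjusted p = 2.88e-14 on wells and 0.00155 on line sums) and was still called. The excess over telencephalon was then 1.2 ± 0.27, which passed on wells (0.00161) and not on line sums (0.554), so that call was lost. The smaller drop with K27M in brainstem was still called, at 1.95 ± 0.27 (3.53e-08 and 0.0381). At day 2, Eya1 was higher in K27M by 1.14 ± 0.15 in brainstem and 1.17 ± 0.15 in telencephalon. Between regions, control brainstem at day 5 was lower than control telencephalon by a log2 difference of -2.36 ± 0.16 (adjusted p = 1.46e-25 and 1.14e-06). At day 5 the mature oligodendrocyte marker sums given above did not overlap between the brainstem genotypes. Those of telencephalon control (26277 to 62340 CPM) and telencephalon K27M (31504 to 56451 CPM) overlapped each other and both brainstem ranges. The astrocyte marker sums did not overlap between the control regions and overlapped between the genotypes of each region. The part of these marker sums in the Eya1 differences was not tested.

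Eya4, the Eya gene whose loss causes deafness and heart muscle disease, was lower than Eya1 in TPM in every group. It lies at chr10:23102963-23350786 on the minus strand (ENSMUSG00000010461.15). Its brainstem control wells held 0.815, 1.42 and 1.81 CPM at day 0 (lowest, median and highest) and 0.287, 0.621 and 1.22 CPM at day 5. Brainstem K27M wells held 2.63, 3.49 and 4.44 CPM at day 0 and 2.17, 2.83 and 3.97 CPM at day 5, above all control wells of both days. Eya4 was higher in K27M brainstem by a log2 difference of 1.34 ± 0.20 at day 0 (adjusted p = 4.46e-08 on wells and 0.0286 on line sums), 1.61 ± 0.23 at day 2 and 2.14 ± 0.21 at day 5 (2.78e-16 and 8.44e-05). At day 1 the difference was 1.12 ± 0.21, past the threshold on wells (1.32e-05) and not on line sums (0.0538).

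In telencephalon, Eya4 wells at day 5 held 1.2, 1.79 and 2.79 CPM in control and 4.51, 6.33 and 7.76 CPM in K27M, without overlap. The log2 difference was 1.75 ± 0.20 (adjusted p = 2.45e-12 and 0.00211), after 1.32 ± 0.21 at day 2. Group means reached their lowest value at day 2 in all 4 region and genotype combinations, at 0.368, 1.16, 0.604 and 1.53 CPM in brainstem control, brainstem K27M, telencephalon control and telencephalon K27M. From day 0 to day 5 Eya4 fell in brainstem control by 1.01 ± 0.21 and in telencephalon control by 0.72 ± 0.20 (adjusted p on line sums 0.00615 and 0.0456). Eya4 was lower in brainstem than in telencephalon in controls at day 0 (-1.15 ± 0.20) and day 5 (-1.44 ± 0.21), and in K27M at day 5 (-1.05 ± 0.19). When the outlying wells were left out, the K27M difference in brainstem at day 5 was 1.42 ± 0.28 (edgeR adjusted p = 6.3e-05 on wells and 0.0852 on line sums), the control region difference at day 5 was -0.71 (0.054 and 0.419) and the brainstem control change was -0.30 (0.329 and 0.569), so all 3 calls were lost.

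**Figure D2:**
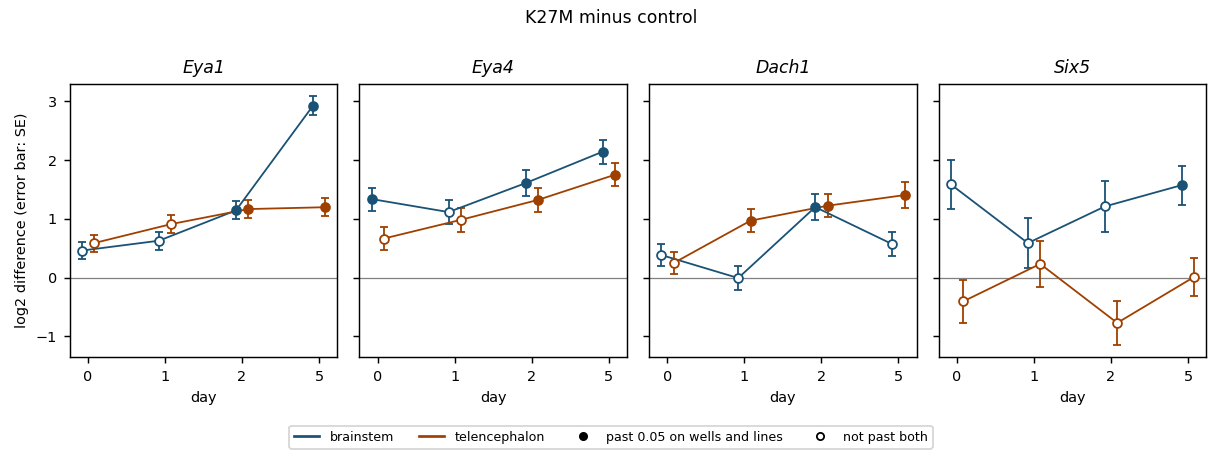
Log2 difference of K27M minus control by day for Eya1, Eya4, Dach1 and Six5 in brainstem and telencephalon; error bars are the SE of the edgeR fit on wells and filled points passed an adjusted p of 0.05 on wells and on line sums. The brainstem Eya1 difference of 2.92 at day 5 stands above the telencephalon difference of 1.2, an excess that was not called on line sums without the outlying wells.

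Dach1, a DNA-binding co-repressor that recruits histone deacetylase complexes, was the third gene with higher levels in K27M cultures of both regions at day 2. It spans chr14:97786853-98169765 on the minus strand (ENSMUSG00000055639.16). The 250 bases upstream of its RefSeq start (GRCm38.p6) are printed because K27M changes the histone mark laid down by Polycomb at CpG-rich starts; the window, chr14:98169766-98170015 on the minus strand, held 13 CpG sites, in capitals, and 31.5% of all 32851 promoter windows held as many in the 250 upstream bases.
Dach1 upstream window: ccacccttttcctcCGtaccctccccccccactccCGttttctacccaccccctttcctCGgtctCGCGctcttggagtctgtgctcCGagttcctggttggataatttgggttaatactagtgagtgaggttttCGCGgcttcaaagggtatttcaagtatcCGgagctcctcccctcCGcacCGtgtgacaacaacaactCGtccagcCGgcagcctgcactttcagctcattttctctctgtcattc
The median over all windows was 6 CpG. Of the other members with a RefSeq window, Eya4 had 35 and 25 CpG in its 2 windows, Six2 26, Eya3 18, Six4 15 and 13, Dach2 14 and 13 and Six5 13.

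Dach1 wells in telencephalon at day 5 held 0.0627, 0.279 and 0.422 CPM in control and 0.428, 0.766 and 0.878 CPM in K27M, so the ranges only just missed each other. The log2 difference was 1.40 ± 0.22 (adjusted p = 2.47e-07 on wells and 0.00482 on line sums), after 0.97 ± 0.19 at day 1 and 1.22 ± 0.20 at day 2. In brainstem, Dach1 was higher in K27M at day 2 by 1.2 ± 0.22 (7.44e-06 and 0.0155), while the day 5 difference of 0.57 ± 0.21 passed on wells (0.0206) and not on line sums (0.151), and neither did 0.88 ± 0.30 without the outlying wells (0.172). These values rest on few reads, with 85 counts over the 9 telencephalon control wells of day 5 and 242 over the 9 brainstem control wells. Dach1 fell from day 0 to day 5 in every group, by 1.3 ± 0.20 and 1.12 ± 0.19 in brainstem control and K27M and by 2.36 ± 0.22 and 1.2 ± 0.20 in telencephalon control and K27M. Between regions, Dach1 was lower in brainstem in K27M at day 1 (-0.97 ± 0.19) and day 2 (-0.94 ± 0.20) and in controls at day 2 (-0.92 ± 0.22). Without culture 41 the brainstem minus telencephalon difference in K27M at day 2 was -0.55 (edgeR adjusted p = 0.0909), which was no longer a call.

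Eya2 was the Eya gene that rose with differentiation. The gene, known for its threonine phosphatase activity, lies at chr2:165595032-165771727 on the plus strand (ENSMUSG00000017897.18). Its day 0 wells held 1.34, 2.57 and 2.98 CPM in brainstem control, 1.08, 2.48 and 3.35 in brainstem K27M, 0.725, 0.855 and 1.43 in telencephalon control and 0.699, 1.1 and 1.80 in telencephalon K27M. By day 5 they held 3.94, 4.21 and 5.53, then 2.55, 4.09 and 5.24, 1.40, 2.85 and 3.89, and 2.50, 2.81 and 3.44 CPM in the same order. Eya2 wells of day 0 and day 5 did not overlap in brainstem control and telencephalon K27M and overlapped in the other 2 combinations. The log2 rises were 0.99 ± 0.20, 0.86 ± 0.20, 1.53 ± 0.21 and 1.32 ± 0.20 (adjusted p on line sums 0.014, 0.032, 0.000442 and 0.00207). The rise in brainstem control was 1.53 ± 0.26 without the outlying wells (edgeR adjusted p on line sums 0.00385). K27M and control did not differ past the threshold on both fits at any day; the day 5 differences were -0.25 in brainstem, or -0.80 without the outlying wells (edgeR adjusted p = 0.0183 on wells and 0.288 on line sums), and 0.11 in telencephalon. Between regions, Eya2 was higher in brainstem control at day 0 (1.28 ± 0.21) and day 2 (1.61 ± 0.20) and in brainstem K27M at day 1 (1.12 ± 0.20).

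The transcripts assigned to Eya2 changed with the day as well. At day 5, the noncoding transcript Eya2-203 took 79.7 ± 2.3%, 68.7 ± 6.5%, 80.2 ± 1.5% and 73.9 ± 10.3% (SD over 3 cultures) of the Eya2 TPM in brainstem control, brainstem K27M, telencephalon control and telencephalon K27M, against mean shares of 12.2 to 43.6% at days 0 to 2. The full-length coding transcript Eya2-202 took 19.5 to 29.8% at day 5 and 49.2 to 80.2% earlier. Eya2-203 has 369 bases in 2 exons, of which 330 bases also lie in Eya2-202, a transcript of 2447 bases and 16 exons, and 39 bases do not. Only the first stretch of its first exon, in capitals, lies in no exon of Eya2-202. The exon, chr2:165769186-165769325 on the plus strand of GRCm38, is printed to show this stretch. These bases adjoin an exon of Eya2-202 and lie in its intron. Unspliced Eya2 RNA would hold them too, and its part in the Eya2-203 shares of these total RNA libraries was not tested.
Eya2-203 first exon: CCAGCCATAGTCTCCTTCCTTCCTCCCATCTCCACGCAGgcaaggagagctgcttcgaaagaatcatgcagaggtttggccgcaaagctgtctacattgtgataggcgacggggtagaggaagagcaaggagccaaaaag
Read counts give another picture, since TPM divides by the short length of Eya2-203: in brainstem control at day 5 it held 1.15 CPM, and Eya2-202 3.2 CPM. With the coding transcripts alone, an alternative added after the data were seen, the rises were 0.69, 0.68, 1.16 and 1.06 on the log2 scale in the order above. On line sums the adjusted p of edgeR was then 0.0961 and 0.0848 in brainstem control and K27M and 0.00565 and 0.0121 in telencephalon, so the brainstem calls were lost and the telencephalon calls were made. Leaving out the outlying wells as well gave a rise of 1.13 ± 0.27 in brainstem control, which was a call (0.000124 on wells and 0.0421 on line sums). The shares are Salmon estimates without an error of their own.

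**Figure D3:**
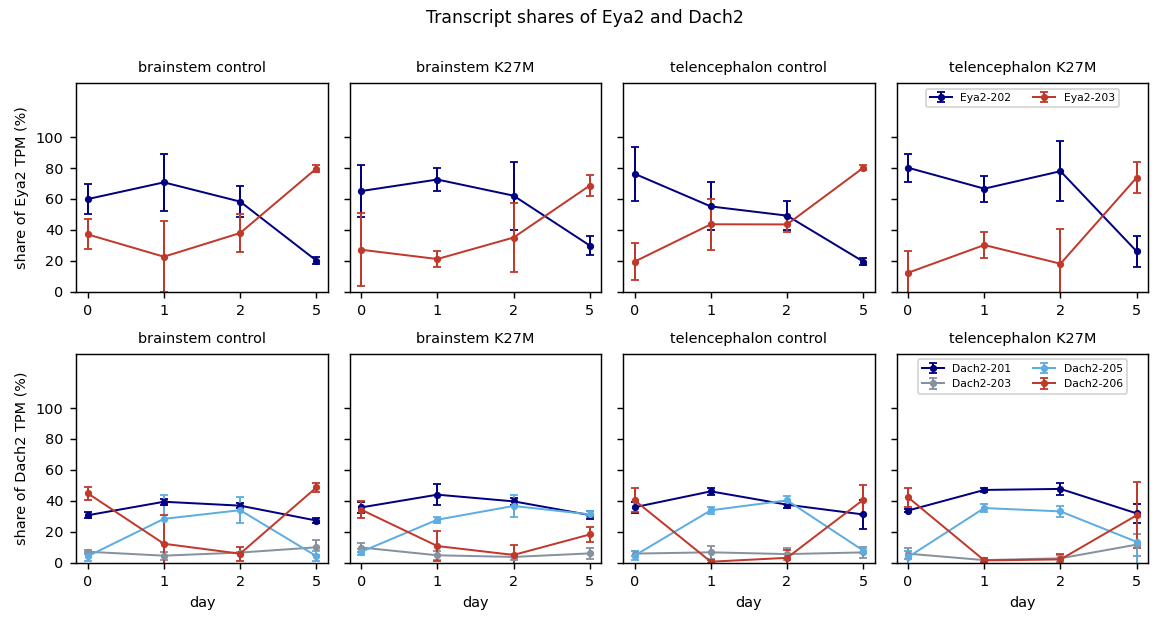
Share of the gene's TPM, in percent, taken by the main transcripts of Eya2 and Dach2 in each region, genotype and day; points are means over 3 cultures and error bars are SD. The Eya2-203 share was 68.7 to 80.2% at day 5 and at most 43.6% before.

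Dach2, the X-linked partner of Dach1 at chrX:113297510-113836386 on the plus strand (ENSMUSG00000025592.17), was more abundant than Dach1 in every group. In brainstem control its wells held 18.5, 21.3 and 26.1 CPM at day 0, 27.5, 29.9 and 35.1 CPM at day 1 and 6.13, 7.97 and 12.2 CPM at day 5, so day 1 lay above day 0 and day 5 below both without overlap. Group means were higher at day 1 than at day 0 in all 4 combinations, and lowest at day 5. The day 5 minus day 0 log2 differences were -1.31 ± 0.14 and -0.72 ± 0.14 in brainstem control and K27M, and -1.16 ± 0.14 and -1.65 ± 0.15 in telencephalon control and K27M, with adjusted p on line sums between 1.17e-06 and 0.012. Dach2 was higher in brainstem in controls at day 0 (0.80 ± 0.14) and day 2 (0.85 ± 0.14) and in K27M at day 5, where brainstem wells held 8.27 to 11.2 CPM and telencephalon wells 3.24 to 5.05 CPM (1.25 ± 0.14, adjusted p = 2.16e-12 and 0.00157).

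Dach2 transcripts also shifted. The noncoding transcript Dach2-206 took 34.2 to 44.9% of Dach2 TPM at day 0, 0.55 to 12.2% at days 1 and 2, and 18.2 to 48.6% at day 5. At day 5 in brainstem, Dach2-206 took 48.6 ± 2.8% in control and 18.2 ± 5.0% in K27M, while the coding transcript Dach2-205 took 4.2 ± 3.3% and 31.2 ± 2.0%. None of the 3 cultures of 1 genotype overlapped the other genotype in either share. Over all transcripts the K27M difference in brainstem at day 5 was 0.09, and with coding transcripts alone it was 0.92 ± 0.19 (edgeR adjusted p = 1.78e-05 on wells and 0.0428 on line sums). The fall in brainstem K27M from day 0 to day 5 was then -0.21 (adjusted p = 0.287), which was no longer a call. The outlying wells are among these control wells, and the control share of culture 38 alone was 50.1% for Dach2-206. Without them the K27M difference of the coding transcripts was 1.03 ± 0.28, past the threshold on wells (0.00253) and not on line sums (0.235).

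Eya3, the Eya gene with the broadest expression and known for its tyrosine phosphatase activity on H2AX, lies at chr4:132638987-132724765 on the plus strand (ENSMUSG00000028886.15) and varied least. Its wells held 22.9, 28.5 and 31.9 CPM in brainstem control at day 0 and 15.5, 19.8 and 22.3 CPM at day 5. Eya3 fell by 0.50, 0.62, 0.56 and 0.64 on the log2 scale (SE 0.06 each) in brainstem control, brainstem K27M, telencephalon control and telencephalon K27M, with adjusted p on line sums from 7.47e-08 to 1.19e-05. It was lower in brainstem control than in telencephalon control at day 2 (-0.34 ± 0.06, adjusted p on line sums 0.0268). No K27M difference of Eya3 passed both fits.

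Six4 encodes a homeodomain protein that binds the MEF3 element, and it had the highest TPM of Six2, Six4 and Six5 apart from telencephalon at day 5, where Six5 stood above it. It lies at chr12:73099609-73113456 on the minus strand (ENSMUSG00000034460.9). The MEF3 core TCAGGTT, searched on both strands, was in 4.07% of all promoter windows of 300 bases (1337 of 32851) and in 1 of the 10 windows of the 7 members that matched, which was a window of Six4; Eya1 and Eya2 had no window. The bases around it, chr12:73113327-73113351 on the minus strand, are printed with the core on the opposite strand in capitals, and they lie inside an annotated UTR of Six4-201.
Six4 MEF3 core: cctgggggaAACCTGAtcggccaga
A match of these letters is a description of the sequence and not a binding site.

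Six4 peaked at day 1 in brainstem control, where wells held 10.5, 11.4 and 13.2 CPM against 2.39, 4.23 and 6.3 CPM in telencephalon control. The region difference in controls was 1.51 ± 0.17 at day 1 and 1.83 ± 0.17 at day 2 (edgeR adjusted p = 1.92e-13 and 2.94e-17 on wells, 0.000652 and 0.000153 on line sums), with wells that did not overlap on either day. At day 5 it was 0.95 ± 0.17 (1.79e-06 and 0.0379). That last call rested on the outlying wells: without them the difference was 0.07 (adjusted p = 0.870), and in culture 38 it was -0.12. In brainstem at day 1, K27M wells held 6.26 to 7.84 CPM, all below the control wells, a difference of -0.73 ± 0.16 that passed on wells (0.00028) and not on line sums (0.18). Six4 fell from day 0 to day 5 by 0.80 ± 0.16 in brainstem K27M, 1.40 ± 0.17 in telencephalon control and 1.74 ± 0.17 in telencephalon K27M. In brainstem control the difference was -0.60 ± 0.16, with an edgeR adjusted p of 0.0666 on line sums, and without the outlying wells it was -1.51 ± 0.24 (1.04e-08 on wells and 0.00143 on line sums).

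Six5, the homeobox gene next to the myotonic dystrophy gene Dmpk, lies at chr7:19094594-19098549 on the plus strand (ENSMUSG00000040841.5), 0.773 kb from Dmpk. It was near its detection limit before day 5, with 34 counts over the 9 brainstem control wells of day 0. Its wells held 0.0202, 0.0796 and 0.0895 CPM in brainstem control at day 0 and 0.048, 0.209 and 0.637 at day 5. Brainstem K27M wells held 0.794, 0.865 and 1.59 CPM at day 5, telencephalon control wells 0.415, 0.857 and 1.75 and telencephalon K27M wells 0.283, 0.815 and 1.58. The brainstem control wells were thus the low group at day 5, and brainstem control culture 38, at 0.604 CPM, lay above cultures 41 and 42, at 0.123 and 0.216 CPM. Six5 rose from day 0 to day 5 by 2.2 ± 0.40, 2.19 ± 0.34, 1.69 ± 0.34 and 2.11 ± 0.35 in brainstem control, brainstem K27M, telencephalon control and telencephalon K27M. Dmpk rose over the same days in brainstem control, telencephalon control and telencephalon K27M, by 0.62 ± 0.14, 1.2 ± 0.14 and 0.90 ± 0.14. The Dmpk change in brainstem control was 0.10 ± 0.19 without the outlying wells, which was no longer a call, and that of Six5 was 3.29 ± 0.46, which was.

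The Six5 differences between groups changed when few libraries were left out or a passage covariate was added. At day 5 the K27M difference in brainstem was 1.57 ± 0.33 (edgeR adjusted p = 4.53e-05 on wells and 0.0254 on line sums), and without the outlying wells it was 0.48 (0.463 and 0.736). The control region differences were -1.93 ± 0.41 at day 0, -1.83 ± 0.41 at day 2 and -1.41 ± 0.33 at day 5. With passage as a covariate they were -0.59, -0.18 and -0.15 (edgeR adjusted p = 0.321, 0.794 and 0.813). Control passages were 3 to 8 in brainstem and 1 to 4 in telencephalon, so passage and region cannot be told apart here. The day 5 difference was -0.31 without the outlying wells (0.677), and without culture 42 it was -0.83 (0.132).

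**Figure D4:**
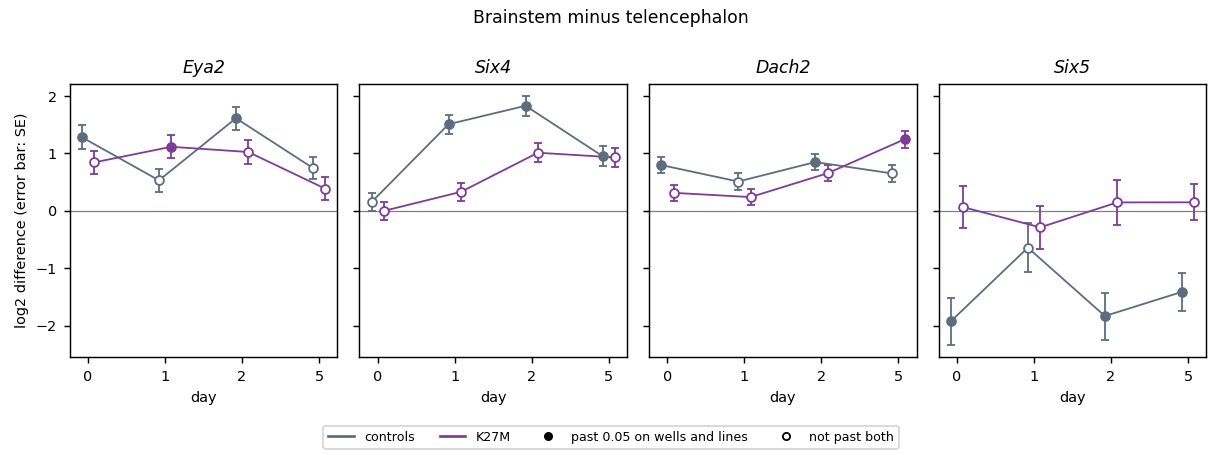
Log2 difference of brainstem minus telencephalon by day for Eya2, Six4, Dach2 and Six5 in control and K27M cultures; error bars are the SE of the edgeR fit on wells and filled points passed an adjusted p of 0.05 on wells and on line sums. Six4 in controls was at 1.51 on day 1 and 1.83 on day 2.

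Six2, which keeps nephron progenitors in their undifferentiated state in the kidney, was a gene of 1 line. It lies at chr17:85684277-85688274 on the minus strand (ENSMUSG00000024134.11). Of its 396 counts over all libraries, 340 (85.9%) came from brainstem control culture 42, where all 11 wells had a count, and the other 11 lines held 56 counts together, from 1 to 13 each. In that line the day 0 wells held 0.0179, 1.01 and 1.26 CPM, the day 1 wells 0.325 and 1.05, the day 2 wells 0.224, 0.355 and 0.486, and the day 5 wells 0.437, 0.493 and 0.600. The well with 0.0179 CPM was at passage 3 and the other 2 wells of that day at passage 8, and the part of passage was not tested. The calls of lower Six2 in brainstem K27M at days 0, 1 and 5 rested on this line. Six2 did not pass the filter on low counts without culture 42, its difference at day 5 in culture 38 was 0.03, and without the outlying wells the day 5 call was lost on line sums (edgeR adjusted p = 0.32). The 230 bases before its RefSeq start that lie outside the annotated gene, chr17:85688275-85688504 on the minus strand of GRCm38.p6, are printed because this start is among the richest of the members' windows in CpG, with 24 sites in capitals and a GC content of 64.8%.
Six2 upstream window: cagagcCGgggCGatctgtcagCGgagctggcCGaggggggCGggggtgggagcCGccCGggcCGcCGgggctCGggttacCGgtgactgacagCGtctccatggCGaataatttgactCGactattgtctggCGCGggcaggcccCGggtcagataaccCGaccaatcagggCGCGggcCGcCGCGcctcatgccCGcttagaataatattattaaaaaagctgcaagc

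Six3, the eye and forebrain gene 55.0 kb from Six2, was higher in telencephalon. Its group means were 0.189 to 0.587 CPM in telencephalon and 0 to 0.148 CPM in brainstem, and it was called lower in brainstem at every day in both genotypes. Within brainstem at day 5 it was lower in K27M by a log2 difference of -2.50 ± 0.44, from means of 0.148 CPM in control and 0.0228 CPM in K27M. The control cultures 38, 41 and 42 held 0.0155, 0.302 and 0.125 CPM, so the high values were those of the outlying wells. Without them the difference was -1.31 ± 0.58 (edgeR adjusted p = 0.119 on wells and 0.297 on line sums), which was no longer a call. In telencephalon no K27M difference of Six3 was called, and the 2 K27M differences at day 5 differed by -2.86 ± 0.52, a call that was also lost without those wells (-1.68 ± 0.69, 0.133 and 0.592). The control region difference of Six3 at day 5 was then estimated with an SE of 11.6 and is not read. Six6 was at group means of 0 to 0.0379 CPM and did not pass the filter on wells. Ski, the relative of Dach that represses TGF-beta signalling, stood at 43.2 CPM in brainstem control at day 5 against 68.8 CPM in telencephalon control and 60.5 CPM in brainstem K27M. Ski was thus lower in brainstem control by -0.67 ± 0.08 and higher in K27M brainstem by 0.46 ± 0.08. These were -0.52 and 0.33 without the outlying wells, with edgeR adjusted p of 0.147 and 0.558 on line sums, and neither was a call. Skil was called in no comparison on both fits.

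**Figure D5:**
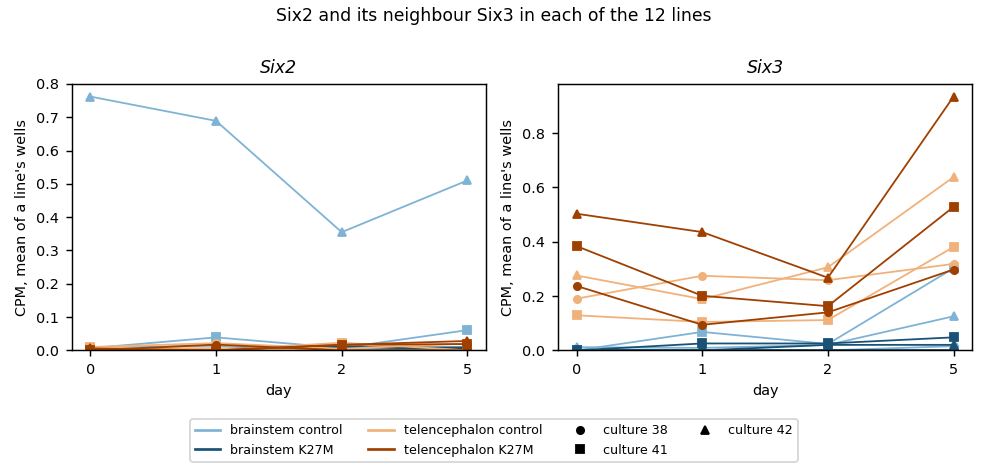
Mean CPM of Six2 and Six3 in each of the 12 lines by day, with 1 point per line and day. Six2 stands at 0.355 to 0.762 CPM in brainstem control culture 42 and near 0 in the other 11 lines, while Six3 is higher in the telencephalon lines.

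Among the upstream Pax genes, 2 of 9 passed the filter on wells, Pax3 and Pax6. Pax3, a dorsal patterning gene that lies above Eya1 in muscle, was higher in brainstem at every day in both genotypes, with 9.69 CPM in brainstem control and 0.0327 CPM in telencephalon control at day 0 (log2 difference 8.67 ± 0.30). At day 5 Pax3 was higher in K27M brainstem, at 10.3 CPM against 3.64 CPM in control (1.47 ± 0.18, edgeR adjusted p = 1.49e-11 on wells and 0.0176 on line sums). The difference was 0.83 ± 0.24 without the outlying wells, past the threshold on wells (0.00641) and not on line sums (0.545). Pax6 was called between regions only, in controls at day 1 and in K27M at day 2.

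Of the 10 cofactors of the complexes, all were tested. From day 0 to day 5, 4 fell in every region and genotype, namely the corepressors Tle4 and Ncor1, the deacetylase Hdac3 and the scaffold Sin3a, where 59.1 to 64.9% of all genes were called. The fall of Ncor1 in brainstem control was lost on line sums without the outlying wells (edgeR adjusted p = 0.317). Tle2 and Tle3 rose in both telencephalon genotypes. At day 5 Tle2 was lower in K27M brainstem, at 7.31 CPM against 15.2 CPM in control (-1.03 ± 0.16, 11.2% of all genes called), and no cofactor was called between genotypes in telencephalon (2.12%), where 2 passed on wells. Leaving out the outlying wells gave a Tle2 difference of -0.25 ± 0.22 (edgeR adjusted p = 0.438), which was no longer a call. At earlier days, where no day 5 wells are compared, Tle2 was lower in K27M brainstem at days 0 and 1 (1.35% and 4.81% of all genes called). Tle2 was also lower in K27M telencephalon at days 1 and 2 (3.29% and 4.77%), and Tle3 was higher in K27M brainstem at day 2 (3.93%). The median of the 10 at day 5 in brainstem was 0.02, beside 0.03 over all genes.

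Genes described as targets of these factors in other tissues were 13, of which 10 were tested. From day 0 to day 5, Gdnf, a Six2 and Eya1 target in kidney, the ion transporter Slc12a2 and the membrane linker Ezr rose in all 4 combinations, and Igfbp5 in 3 of them. Ccna1, Ccnd1, Ccne1 and Myc, which drive the cell cycle, fell in all 4, beside 59.1 to 64.9% of all genes called. Cycling markers at day 5 summed to 137 to 449 CPM in brainstem control, 278 to 425 in brainstem K27M, 84.2 to 185 in telencephalon control and 174 to 251 in telencephalon K27M, and their part in these falls was not tested. In K27M brainstem at day 5, 3 of the 10 targets were higher and none lower (11.2% of all genes called), with a median of 0.42 beside 0.03 over all genes. They were Sall1, a kidney progenitor gene (46.0 against 22.1 CPM, 1.05 ± 0.15), Igfbp5 (80.5 against 5.32 CPM, 3.63 ± 0.50) and Ezr (68.0 against 14.0 CPM, 2.25 ± 0.39). Without the outlying wells their differences were 1.14, 2.02 and 0.52, with edgeR adjusted p of 0.133, 0.392 and 0.848 on line sums, so all 3 calls of day 5 were lost. At earlier days, where no day 5 wells are compared, Igfbp5 was higher in K27M brainstem at days 0, 1 and 2. Ezr was higher there at day 1 and Sall1 at day 2. Of all genes, 1.35%, 4.81% and 3.93% were called at days 0, 1 and 2. In telencephalon at day 5 only Sall1 was called among them, at 63.7 CPM in K27M and 31.4 CPM in control (1.03 ± 0.15). The 3 genes of the H2AX tyrosine switch, on which Eya phosphatases act (H2afx, Baz1b and Mdc1), all fell from day 0 to day 5 in every combination (59.1 to 64.9% of all genes called), and none was called between genotypes in either region.

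Over the 48 line-by-day means, pairs of the 9 genes had Pearson correlations between -0.80 and 0.81. The highest was that of Six4 and Dach2 (0.81), followed by Eya1 with Dach1 (0.76) and Eya1 with Eya4 (0.72), and the lowest that of Six5 and Dach2. These points share libraries and the course of differentiation, so the values only describe likeness.

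The protein-coding genes most like each member over the same 48 means were as follows. Eya1 was most like Map7d3 (0.85), Rab38 (0.84) and Chrna4 (0.84). For Eya2 they were Vwa1 (0.80), Matn2 (0.79) and Ggct (0.75), the lowest values of the 9. Eya3 was closest to Nup153, Nxt1 and Nelfa (0.90, 0.90 and 0.89), which act in nuclear transport and transcription elongation. The nearest to Eya4 were Hmgcll1 (0.90), Perp (0.87) and Parp12 (0.85), and to Dach1 Has3 (0.88), Cers6 (0.86) and Ly75 (0.85). Six4 and Dach2 shared Asic1, an acid-sensing ion channel, among their 3 closest genes (0.88 and 0.91). The other closest genes were Fam19a1 (0.88) and Itga9 (0.87) for Six4, and Vxn (0.91) and Nlgn1 (0.91) for Dach2. Six5 was closest to Ajuba (0.95), Gpx8 (0.95) and P2rx6 (0.94). For Six2, Vax2 (0.84), Lmx1b (0.82) and Smyd3 (0.80) were closest, with the 4 day means of its 1 high line among the points.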

How the data were processed

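The authors quantified stranded total RNA libraries with Salmon 1.10.1 against mm10, with corrections for sequence and GC bias per the study's methods, and deposited estimated counts, TPM and effective lengths per transcript. Estimated counts were summed per gene with GENCODE M21 names and rounded, and TPM was summed per gene.

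Genes passing filterByExpr (19769 on wells, 23006 on line sums) were tested in edgeR 4.0.16 (R 4.3.3; quasi-likelihood, TMM, culture within region as a block) in 26 comparisons, with Benjamini-Hochberg adjustment per comparison, first on wells and then on the 12 lines' summed counts. This follows the study's use of culture as a covariate; its DESeq2 test was run as an alternative (1.42.0), without its fold threshold of 1.1. The scripts were tested on simulated counts. Culture-level log2 differences and likeness used CPM + 0.05.

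All 9 members were named, with family genes, list genes past both fits, the 3 genes most alike and the nearest neighbours. Members and lists were chosen with earlier results of these data known. Some list and family genes are not reported here. RefSeq (GRCm38.p6) gave promoter sequences for 7 members. Wells of 1 line may share animals, so p-values on wells measure partly technical spread. Alternatives changed normalization, filter, length offset, block, passage, outlying wells and cultures.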

Additional observations from a re-analysis of the deposited data

Results flagged for a closer look

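Dixon's test was run at its 95% level on 144 sets of wells (9 genes in 16 groups). In 10 sets (6.94%) the highest well was set apart from the rest. Chance gives this in about 1 of 20 sets only for normally distributed values. Where all other wells are at 0, any read sets a well apart, so that rate does not apply to the low Six2 groups. For Eya4 this was a brainstem control well of day 1 at 1.62 CPM. For Six5 it was a brainstem control well of day 2 at 0.340 CPM and a telencephalon K27M well of day 2 at 0.504 CPM. The other 7 were Six2. One was a brainstem control well of day 1 at 1.05 CPM, from the line described in the report. The rest were wells with few reads in groups otherwise near 0, at 0.0176, 0.0127 and 0.0282 CPM in brainstem K27M at days 0, 1 and 5, at 0.0627 CPM in telencephalon control at day 5, and at 0.0170 and 0.0506 CPM in telencephalon K27M at days 0 and 2.

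The K27M difference of Eya1 was larger in brainstem than in telencephalon at day 5 by 1.73 on the log2 scale, and the change of Eya1 from day 0 to day 5 differed between genotypes in brainstem by 2.46, both by the edgeR interaction test on wells and on line sums. Without the outlying wells they were 1.2 and 1.95, and the first was no longer called on line sums (edgeR adjusted p = 0.554).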

How the results depend on the processing

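Calls over the 9 genes were counted on wells alone and under each alternative. Between regions they numbered 28 in controls and 18 in K27M, between genotypes 21 in brainstem and 16 in telencephalon, for the difference of the K27M effects 12, from day 0 to day 5 30, and for the K27M change of that difference 6. On line sums they were 15, 5, 10, 7, 1, 29 and 1. Chosen after seeing the data, line sums of coding transcripts gave 12, 8, 11, 8, 1, 26 and 1, and line sums without the outlying wells gave 12, 8, 8, 8, 1, 29 and 1. A passage covariate gave 18 for regions in controls, and a transcript length offset gave 3 for the K27M change. Leaving out 1 culture gave 23 to 29, 16 to 19, 16 to 20, 11 to 15, 6 to 12, 29 to 30 and 3 to 4 in the order above, with the low of 6 without culture 41 and the low of 3 without culture 42. With the replicate number as a block the counts were 28, 18, 21, 16, 12, 30 and 6, so no count moved; same-numbered wells of 1 line had a median correlation of 0.00633 over 210 pairs, so the numbers did not pair the wells. In culture 38 alone, Six2 in brainstem at day 5 (0.030) and Six4 between control regions at day 5 (-0.12) reversed, and the cause was not tested. Of 1219 values for the differences called on both fits, each judged in the alternative's own fit, these 2 reversed, 26 lost the threshold, 27 moved by more than 1 SD, all in culture 38 alone, and 1164 did none of these. Of the 26, 8 were on line sums without the outlying wells and 7 on line sums of coding transcripts. Of the 1164, 68 were on the line sums of all wells. These differences had been picked for passing there, so those 68 could not lose the threshold. Depth limits Six2, Six5 and Dach1, which had few counts per well.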

Other observations

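Genes next to the members were read by position, whatever their values. Slc2a10, a sugar transporter 75.1 kb from Eya2, was higher in K27M brainstem at day 5, at 2.05 CPM against 0.616 CPM in control (log2 difference 1.63 ± 0.22, edgeR adjusted p = 9.44e-10 on wells and 0.00462 on line sums). Zmynd8, a chromatin reader 12.4 kb on the other side of Eya2, was lower there, at 37.7 against 59.5 CPM (-0.64 ± 0.10, 1.85e-07 and 0.00351). Without the outlying wells of day 5 brainstem control, the difference of Slc2a10 was 0.91 and that of Zmynd8 -0.51, with adjusted p of 0.342 and 0.0731 on line sums, so both calls were lost. Klhl4, 638 kb from Dach2, rose from day 0 to day 5 in all 4 combinations, from 0.806 to 63.8 CPM in brainstem control (6.3 ± 0.36), while Dach2 fell. Xkr8, a scramblase whose gene lies 0.132 kb from Eya3, fell in 3 of the 4 combinations, of which the fall in brainstem control was lost on line sums without the outlying wells (adjusted p = 0.104). The genes on both sides of Dach1, Klhl1 and Rpl36a-ps1, lay 1268 and 824 kb away with mean levels of 0.0553 and 0.0303 CPM.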
